A study of Mus musculus with 46 samples.

Results

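H3.3 was mapped by ChIP-Seq in D9T- and D9T+, the Thy-1- and Thy-1+ cells sorted on day 9 of the conversion of fibroblasts from mouse embryos (MEFs) into induced pluripotent cells (iPSCs). Each fraction had 1 library, and these 2 libraries were taken by their labels from the 46 samples of the series, of which 30 had peak lists and 12 were H3.3 libraries of reprogramming. All MEFs carried an IRES-EGFP cassette behind the stop codon of Oct4 (Pou5f1), and the cells had received Oct4, Sox2, Klf4 and c-Myc (OSKM) from pMXs retroviruses, so neither sorted fraction is an untransduced control. The other H3.3 libraries came from the MEFs before induction (D0), unsorted cells on day 3 (D3), Thy-1 fractions on day 6 (D6T- and D6T+), SSEA-1 fractions on days 12 and 16 (D12S+, D12S-, D16S+ and D16S-), iPSCs and the embryonic stem cell line ESD3. The study took T- and S+ cells as the successful route towards iPSCs, and T+ and S- cells as the unsuccessful route. Strain, sex and the number of embryos behind a library are not given in the sources used here, and a sorted fraction may hold several kinds of cell.

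H3.3 is a variant of histone H3 that is placed into chromatin outside DNA replication. The chaperone HIRA places it at genes and regulatory regions, and ATRX with DAXX places it at repeats and telomeres, so that H3.3 follows places where nucleosomes are exchanged. Thy-1, a surface glycoprotein of fibroblasts, is lost early by cells on the way to pluripotency, which first take on epithelial features and later switch on their own pluripotency genes.

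The D9T- library held 32.4 M tags and 68394 peaks covering 96.1 Mb, and the D9T+ library held 22.5 M tags and 64199 peaks covering 77.6 Mb. The lists held 14.8% and 12.1% of the tags inside peaks. The score of a peak is its normalized tag count, that is its tags per 10 M tags of the library. The fold over input had a median of 3.40 in D9T- and 4.15 in D9T+, and the peak caller asked for at least 19 and 15 tags, or 5.87 and 6.68 tags per 10 M. With 1 library a fraction there is no spread between replicates and no test is given. Intervals are 95% intervals for counting error only.

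D9T+ peaks without a D9T- partner were more often peaks of the starting fibroblasts than D9T- peaks without a D9T+ partner. Among those that lay between genes, where motifs were searched, a larger share of D9T+ peaks held an AP-1 sequence at the centre and a larger share of D9T- peaks held the octamer bound by Oct4. The highest-scoring intergenic peaks of each kind were read from the forward strand of the genome build NCBIM37 (mm9), as 150 bases around the motif nearest the peak centre. Eligible D9T+ peaks lay in 1 fraction only and were also found in D0 and not in iPSCs. Their input density was under 3 times the library's median. Peaks of a chromosome named under the processing below were left out before counting and ranking. Of the 2939 such peaks that remained, 872 held the AP-1 sequence TGANTCA. The first 3 by score are shown because they carry this pattern, with the AP-1 match in capitals.
D9T+ 1, chr1:121022180-121022329: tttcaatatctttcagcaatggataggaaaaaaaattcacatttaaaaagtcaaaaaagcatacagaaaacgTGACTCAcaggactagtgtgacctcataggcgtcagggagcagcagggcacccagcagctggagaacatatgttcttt
D9T+ 2, chr6:129166440-129166589: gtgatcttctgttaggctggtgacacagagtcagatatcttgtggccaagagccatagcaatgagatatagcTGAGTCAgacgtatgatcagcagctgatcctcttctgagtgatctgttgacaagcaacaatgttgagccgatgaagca
D9T+ 3, chr1:151978163-151978312: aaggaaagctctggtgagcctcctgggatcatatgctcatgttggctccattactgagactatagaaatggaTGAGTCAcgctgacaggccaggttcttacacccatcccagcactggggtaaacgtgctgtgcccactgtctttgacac

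The peaks around these sequences scored 66.1, 49.0 and 45.0 in D9T+ and 61.6, 54.3 and 41.7 in D0, and they met no peak in D9T- or iPSCs. Each lay between genes, and the nearest protein-coding start sites were those of Gli2, a transcription factor of Hedgehog signalling, 72.0 kb away, Clec2d, 35.9 kb away, and Ptgs2, an inducible prostaglandin synthase, 31.0 kb away. On day 6 the first scored 7.08 in D6T- and 53.1 in D6T+, the second 0 and 9.31, and the third 49.9 and 41.2. Of 2207 eligible D9T- peaks, chosen in the same way but found in iPSCs and not in D0, 108 held the octamer ATGCAAAT. The first 2 by score follow, with the octamer in capitals, which on the strand shown reads ATTTGCAT.
D9T- 1, chr10:24578236-24578385: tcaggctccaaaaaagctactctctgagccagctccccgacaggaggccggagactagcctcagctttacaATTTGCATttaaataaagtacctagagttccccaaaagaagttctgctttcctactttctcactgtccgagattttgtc
D9T- 2, chr3:137443120-137443269: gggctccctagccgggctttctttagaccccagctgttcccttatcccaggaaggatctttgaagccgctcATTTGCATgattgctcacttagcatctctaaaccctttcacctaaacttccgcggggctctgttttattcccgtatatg

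The D9T- peaks holding these sequences scored 47.0 and 34.6 in D9T- and 30.9 and 42.9 in iPSCs, against no peak in D9T+ or D0. They were also intergenic, with nearest start sites of Med23, a Mediator subunit, at 11.3 kb, and H2afz, the gene of histone variant H2A.Z, at 84.2 kb. On day 6 the first scored 9.10 in D6T- and 0 in D6T+, and the second 28.0 and 6.98. A match of letters is a description of the window and does not show that a factor bound there.

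The first question was how far the sorted fractions differed at the level of peaks. A peak was called unshared when no base of it lay under a peak of the other fraction. By this rule 34730 D9T- peaks (50.8%, 50.4 to 51.2%) and 27921 D9T+ peaks (43.5%, 43.1 to 43.9%) were unshared. These counts came mostly from weak peaks. Unshared peaks had a median score of 7.57 in both fractions, near the caller's limit, whereas shared peaks had medians of 20.5 in D9T- and 15.8 in D9T+. Unshared peaks made up 23.7% of the summed score of D9T- and 22.3% of that of D9T+, and 49.0% and 58.9% of them were 500 bp long, the peak size set in the caller. A score above 50 was reached by 83 unshared and 6025 shared D9T- peaks, and by 25 unshared and 4085 shared D9T+ peaks.

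Ranked by score, unshared peaks were rare at the top of both lists. Of the 1000 highest peaks of each fraction 2 (0.200%) met no peak of the other fraction. Among the top 10000 it was 376 D9T- peaks (3.76%) and 380 D9T+ peaks (3.8%), and among the top 40000 it was 13077 (32.7%) and 11490 (28.7%). With equal numbers of top peaks, 64199 in each fraction, 31324 D9T- peaks (48.8%) and 28603 D9T+ peaks (44.6%) were unshared. A peak of the other fraction lay within 1 kb of 23.8% of unshared D9T- peaks and 28.9% of unshared D9T+ peaks, and none lay within 50 kb of 9.13% and 5.93%.

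**Figure D1:**
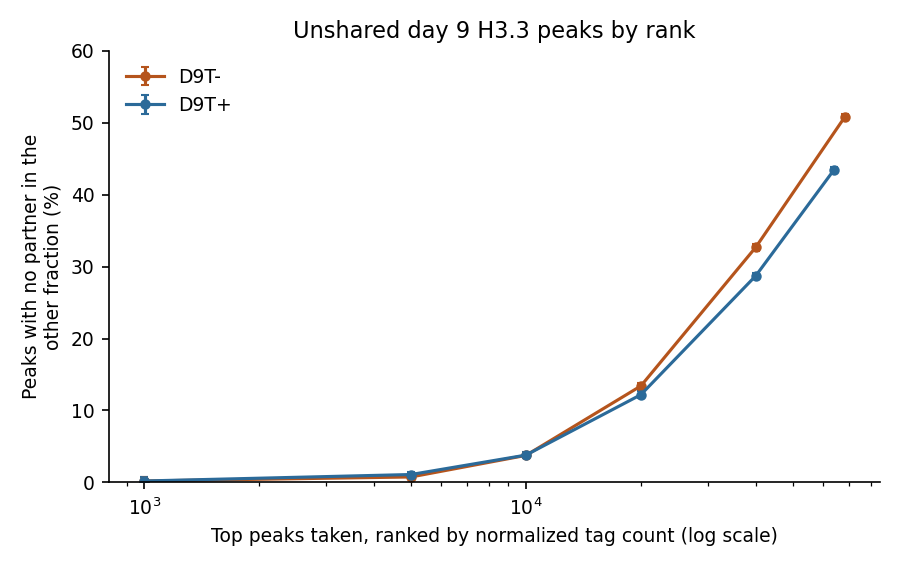
Share of day 9 peaks (percent, vertical axis) without a partner in the whole list of the other fraction, against the number of top peaks taken (log scale), with 95% Wilson bars for D9T- and D9T+. Both lines start at 0.200% for 1000 peaks and end at 50.8% and 43.5% for the whole lists.

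The fractions were closer on day 9 than on day 6. The bases under peaks of both fractions over the bases under peaks of either (Jaccard index) came to 0.346 on day 9 and 0.280 on day 6, and to 0.349 and 0.292 with equal numbers of peaks within each day. On day 6, 52102 D6T- peaks (63.0%) and 24016 D6T+ peaks (39.6%) were unshared. Depth and the share of tags in peaks differed between fractions on both days, and their part in these numbers was not tested.

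Unshared peaks of the fractions differed in where they had been found before day 9. A peak in D0 met 47.5% (46.9 to 48.1%) of unshared D9T+ peaks and 26.3% (25.8 to 26.7%) of unshared D9T- peaks, a difference of -21.2 percentage points (-21.96 to -20.47) for D9T- minus D9T+. For iPSCs the order was the other way round, 28.4% (28.0 to 28.9%) of D9T- and 20.2% (19.7 to 20.6%) of D9T+, a difference of 8.28 points (7.61 to 8.95). With equal numbers of top peaks the shares were 26.8% and 47.7% for D0, and 29.5% and 20.3% for iPSCs. In the full lists, shared peaks met both libraries more often than unshared ones did. D0 met 67.1% of shared D9T- and 64.2% of shared D9T+ peaks, and iPSCs met 52.7% and 51.8%. Fibroblast peaks that iPSCs lacked made up 36.6% of unshared D9T+ and 16.1% of unshared D9T- peaks, and iPSC peaks that D0 lacked made up 9.25% and 18.3%. With peaks enriched 4-fold or more over input, the difference for D0 kept its sign (-11.9 points), but that for iPSCs did not (-0.60 points). This limit kept 26.3% of D9T- and 22.6% of iPSC peaks, and 55.7% of D9T+ and 55.1% of D0 peaks.

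The difference was wider among strong peaks. Leaving out peaks with high input, 76 unshared D9T- peaks and 24 unshared D9T+ peaks scored over 50. Of the D9T+ peaks, 23 lay in D0, 24 in D6T+, 22 in D6T- and 6 in iPSCs. Of the D9T- peaks, 18 lay in D0, 74 in D6T-, 28 in D6T+ and 40 in iPSCs. Strong D9T+ peaks that D9T- lacked were thus mostly peaks of D6T- cells as well as of D6T+ cells.

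The other libraries split less simply by route. D6T- met 47.5% of unshared D9T- and 38.7% of unshared D9T+ peaks, while D6T+ met 17.8% and 31.0%. D12S-, which the study took as unsuccessful, met more of both (51.9% and 44.8%) than D12S+ (17.4% and 10.3%). D12S- had 87536 peaks and D12S+ 45922. D16S+ met 10.2% and 5.75%, D16S- met 27.1% and 24.9%, D3 23.0% and 31.0%, and ESD3 15.3% and 9.73%. None of these 10 libraries held 17.0% of unshared D9T- and 16.0% of unshared D9T+ peaks, against 1.35% and 1.46% of shared peaks. Peaks of all 10 libraries met 82 unshared D9T- and 41 unshared D9T+ peaks.

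**Figure D2:**
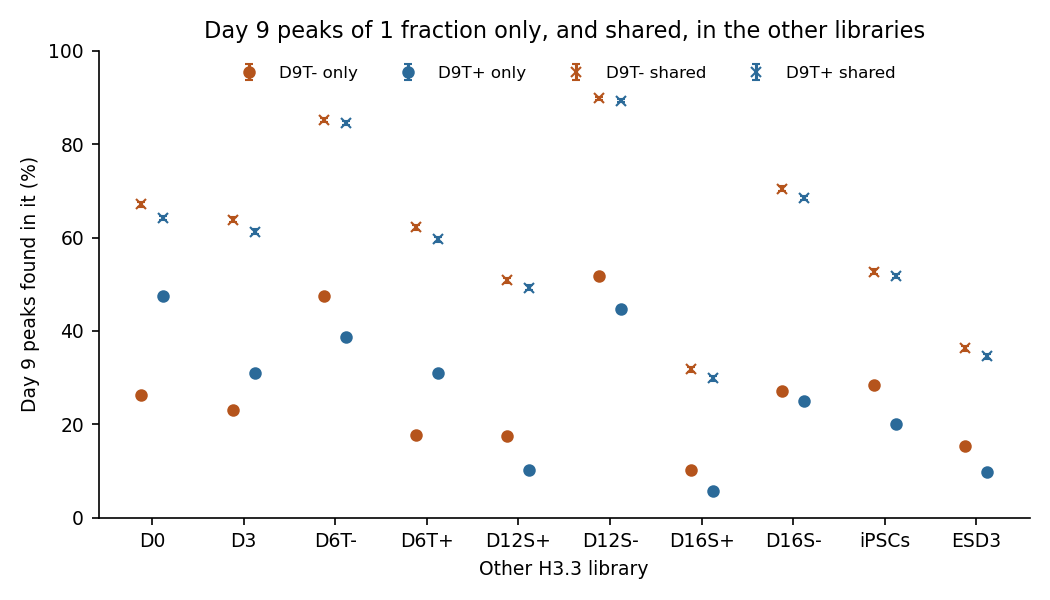
Share of day 9 peaks (percent, vertical axis) that met a peak in each of the 10 other reprogramming H3.3 libraries (horizontal axis), for peaks of D9T- or D9T+ only and for shared peaks, with 95% Wilson bars. D0 held 47.5% of the D9T+ only and 26.3% of the D9T- only peaks, and iPSCs held 20.2% and 28.4%.

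Seen from day 6, 35.1% of unshared D9T- peaks lay in D6T- only, 5.38% in D6T+ only, 12.4% in both and 47.1% in neither. Of unshared D9T+ peaks, 22.4% lay in D6T- only, 14.6% in D6T+ only, 16.3% in both and 46.6% in neither. D6T- had more peaks than D6T+ (82764 against 60705), and the shared D9T- peaks lay in D6T- only in 27.8% and in D6T+ only in 4.77%.

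In both fractions unshared peaks were mostly intronic or intergenic. Introns held 55.9% of unshared D9T- peaks and 59.6% of unshared D9T+ peaks, and intergenic sequence held 31.5% (31.0 to 31.9%) and 28.3% (27.8 to 28.8%). The intergenic share was 3.16 points higher (2.44 to 3.88) in D9T-. Promoters, taken as 1000 bp before to 100 bp after a start site, held 4.88% and 3.70%, exons 4.47% and 4.81%, and the ends of genes 3.27% and 3.64%. Shared peaks lay at promoters in 9.02% (D9T-) and 8.61% (D9T+), and between genes in 28.0% of both. Equal peak numbers gave intergenic shares of 31.4% and 28.3% and promoter shares of 5.10% and 3.69%.

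The deposited peaks of H3K4me3 and H3K36me3 gave a readout that did not choose the H3.3 peaks. H3K4me3 marks active promoters, and H3K36me3 marks transcribed gene bodies. H3K4me3 peaks of D9T- cells met 18.9% of unshared D9T- and 9.62% of unshared D9T+ H3.3 peaks, and 40.2% and 37.9% of shared ones. H3K4me3 peaks of D0 met 15.6% and 17.2%, and those of iPSCs 13.6% and 8.41%. H3K36me3 peaks of D0 met 22.5% of unshared D9T- and 29.2% of unshared D9T+ peaks, those of D9T- 25.8% and 29.2%, and those of iPSCs 5.68% and 6.06%. No D9T+ library of either mark was used here.

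Of 7 sequence motifs searched on both strands in the central 500 bp of unshared intergenic peaks, AP-1 differed most. TGANTCA, the site of Fos and Jun dimers, was in 24.1% (23.2 to 25.1%) of D9T+ and 17.1% (16.4 to 17.8%) of D9T- windows, a difference of -7.02 points (-8.20 to -5.84) for D9T- minus D9T+. Windows 5 kb to either side without a peak held it in 14.3% and 14.5%, and shared intergenic peaks in 20.9% and 22.1%. The octamer ATGCAAAT was in 3.17% of D9T+ and 4.87% of D9T- windows, a difference of 1.70 points (1.13 to 2.25), with 3.27% and 3.31% at the sides. The D9T+ share of the octamer was thus no higher than at its sides. Among peaks enriched 4-fold or more the differences were -3.40 points for AP-1 and 0.80 for the octamer. The motifs of SOX (AACAATG) and KLF (GGGNGTGG) factors were in larger shares of D9T- windows, by 1.81 points (0.96 to 2.65) and 3.32 points (2.27 to 4.35). The TEAD (ACATTCC), RUNX (TGTGGTTT) and ESRRB (AAGGTCA) motifs gave differences of -0.77 (-1.58 to 0.02), -0.10 (-0.70 to 0.49) and -0.67 points (-1.52 to 0.17), whose intervals take in 0. GC content of the windows was 44.3% in both fractions.

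Genes were compared with the 22367 protein-coding genes of GENCODE vM1, each extended by 1000 bp at both ends. By the midpoint of a peak, 12398 genes were bound in D9T- and 11683 in D9T+, with 1868 (8.35%) bound in D9T- only, 1153 (5.15%) in D9T+ only and 10530 in both. Peaks of the other fraction nevertheless touched 327 of the 1868 and 336 of the 1153. Such genes included all 20 with the highest summed scores. On the D9T- side these were Eif4a1, Actb, Rps13, Tubb5, Ubb, Rpl31, Rplp1, Tufm, Hist1h4k and Tpt1, and on the D9T+ side Cd68, Leng9, Hist1h3i, Chmp2a, Rps3a, Srsf2, Ccl2, Impdh2, Ndufaf3 and Ddit4. Each was touched by a peak of the other fraction whose midpoint lay outside the gene and its 1000 bp. Actb, which encodes beta-actin, scored 135 in D9T- and 108 in D9T+, and Cd68, a lysosomal protein of macrophages, 104 and 102. Of these 20 genes, Ccl2, a chemokine that attracts monocytes, was the only one with a difference of 2-fold or more, with 18.0 in D9T- and 72.5 in D9T+.

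Genes are therefore described from here by any base of overlap, a rule added after the values were seen, and the score of a peak was given to a gene in the share of the peak's length that lay in it. This left 1651 genes (7.38%) touched by D9T- peaks only and 900 (4.02%) touched by D9T+ peaks only, with 11392 in both and 8424 in neither. With equal peak numbers the counts were 1549 and 998. Most such genes were weakly marked, with median summed scores of 9.89 and 8.25 against 52.3 and 42.3 for genes touched in both, and 71.2% and 77.6% of them had a single peak. D0 peaks touched 59.4% of the D9T- only and 77.7% of the D9T+ only genes, and iPSC peaks 66.4% and 59.6%.

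By summed score, with values under 6.68 tags per 10 M set to that floor, 2645 genes (11.8%) were at least 2-fold higher in D9T- and 1070 (4.78%) at least 2-fold higher in D9T+. D9T- took 71.2% of these calls. Scaled instead to the tags inside peaks of its own library, the counts were 1830 and 1530, and D9T- took 54.5%. The median log2 ratio (D9T- over D9T+) of genes touched in both was 0.27 before and -0.01 after this scaling, so that single genes are read against a shift of 0.27. Every gene list below is set beside these shares of all genes. Log2 ratios against a value at or under the floor are bounds.

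The gene of the sorting antigen was checked first. Thy1 (chromosome 9) scored 0 in D9T- and 50.1 from 3 peaks in D9T+. In the other libraries it scored 69.3 in D0, 16.1 in D3, 0 in D6T-, 28.8 in D6T+, 17.6 in D12S- and 2.32 in D16S-, and 0 in D12S+, D16S+, iPSCs and ESD3. Both T+ libraries thus had H3.3 on Thy1 and neither T- library had. D12S+, D16S+ and ESD3 held only 6.93%, 4.88% and 7.40% of tags inside peaks, against 19.08% in D0 and 21.96% in D12S-. The part of this in their scores of 0 was not tested. The first of the D9T+ peaks, from -3.92 to -0.108 kb relative to the start, did meet a D9T- peak upstream of the 1000 bp counted, whereas the peaks at 2.58 to 3.08 kb and 4.31 to 6.40 kb past the start did not. Fut4, whose enzyme makes the SSEA-1 sugar, had no peak in either day 9 library.

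Matrix genes were on the D9T+ side. Of 35 extracellular matrix genes, 15 were at least 2-fold higher in D9T+ and 1 in D9T-, against 4.78% and 11.8% of all genes. Peaks touched 28 in D9T- and 32 in D9T+, and of all 22367 genes 13043 and 12292. The median log2 ratio of the 32 matrix genes touched in either was -0.95, against 0.23 over all genes. Col1a2 (chr6:4454814-4491543), which encodes a chain of type I collagen, had 11 peaks and a score of 131 in D9T+ and none in D9T-. It scored 647 in D0, 313 in D3, 26.0 in D6T-, 228 in D6T+ and 0 in iPSCs. Tnc, the gene of tenascin C, scored 107 in D9T+ and 6.49 in D9T-, with 1353 in D0. Fbn1, the gene of the microfibril protein fibrillin, kept 23 peaks and a score of 354 in D9T- against 52 peaks and 1217 in D9T+, with 2143 in D0 and 7.17 in iPSCs. It also held the D9T+ peak that was highest among unshared ones without high input, with a score of 119 at chr2:125152505-125161515 in an intron.

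Other matrix genes repeated the direction with different sizes. Thbs1 and Thbs2, the thrombospondin genes, scored 15.0 and 43.1 in D9T- and 125 and 234 in D9T+. Col1a1 scored 31.0 and 126, Col3a1 70.2 and 194, Col4a2 228 and 511, and Loxl1, a lysyl oxidase that crosslinks elastin, 0 and 45.1. Fn1, the gene of fibronectin, went the other way with 299 in D9T- and 162 in D9T+, which was under 2-fold, and Tgfbi was the 1 member called higher in D9T- (15.0 and 6.80). The counts for the list were 1 and 15 with equal peak numbers and 0 and 18 under scaling to tags inside peaks.

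Of 25 receptors and adhesion genes of fibroblasts, 8 were at least 2-fold higher in D9T+ (4.78% of all genes) and 0 in D9T- (11.8%). With equal numbers of peaks by fold over input it was 7 and 4. Beside Thy1 the 8 were Cdh2 (N-cadherin) with 7.57 in D9T- and 51.9 in D9T+, Vcam1 with 39.5 and 171, Tgfbr3 with 132 and 502, Cdh11, Tgfbr1, Itgb3 and Itga1. The larger genes Cd44 (789 and 1032), Ddr2 (406 and 602) and Lrp1 (249 and 482) stayed under 2-fold. Pdgfra, a widely used fibroblast marker, scored 7.72 and 8.68, near the floor in both.

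Transcription factors of mesenchyme differed in both directions. Of 24, 3 were at least 2-fold higher in D9T- and 4 in D9T+, against 11.8% and 4.78% of all genes. The median log2 ratio of those touched was 0.00, under the 0.23 over all genes. Twist2 (chr1:93698038-93744605), a basic helix-loop-helix factor of mesenchyme, had a log2 ratio of -4.65, with 5.56 from 1 peak in D9T- and 167 from 12 peaks in D9T+. It scored 683 in D0, 73.8 in D3, 38.4 in D6T-, 333 in D6T+, 55.2 in D12S-, 46.8 in D16S- and 0 in D12S+, D16S+, iPSCs and ESD3. The low shares of tags inside peaks given above for D12S+, D16S+ and ESD3 apply here too. Twist1, a relative of Twist2, scored 8.65 in D9T- and 0 in D9T+. The homeobox genes Prrx1 (341 in D9T- and 785 in D9T+) and Prrx2 (8.50 and 50.2) and the bone factor Runx2 (143 and 308) were higher in D9T+. Nfib (891 and 441), Foxc1 (28.4 and 12.5) and Meox2 (28.0 and 6.23) were higher in D9T-. With tags inside peaks Nfib (log2 0.73) and Foxc1 (log2 0.89) were under 2-fold, and the list gave 1 gene in D9T- and 5 in D9T+. Nfia (511 and 344) and Nfix (814 and 641) were under 2-fold from the start.

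Contractile and cytoskeletal genes were mostly marked in both fractions, with 24 of 29 touched in D9T- and 26 in D9T+. Of all 22367 genes, 13043 and 12292 were touched. Beside 11.8% and 4.78% of all genes, 1 gene of this list was at least 2-fold higher in D9T- and 4 in D9T+. The latter were Flnc (0 and 44.1), Lmod1, Cald1 (347 and 768) and Zyx. Lpp scored 366 and 685, a log2 ratio of -0.91 that became -1.19 with tags inside peaks. Vcl (617 and 843), Myh9 (645 and 852) and Vim (247 and 252) differed less, and Vim, the intermediate filament of mesenchymal cells, was level.

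**Figure D3:**
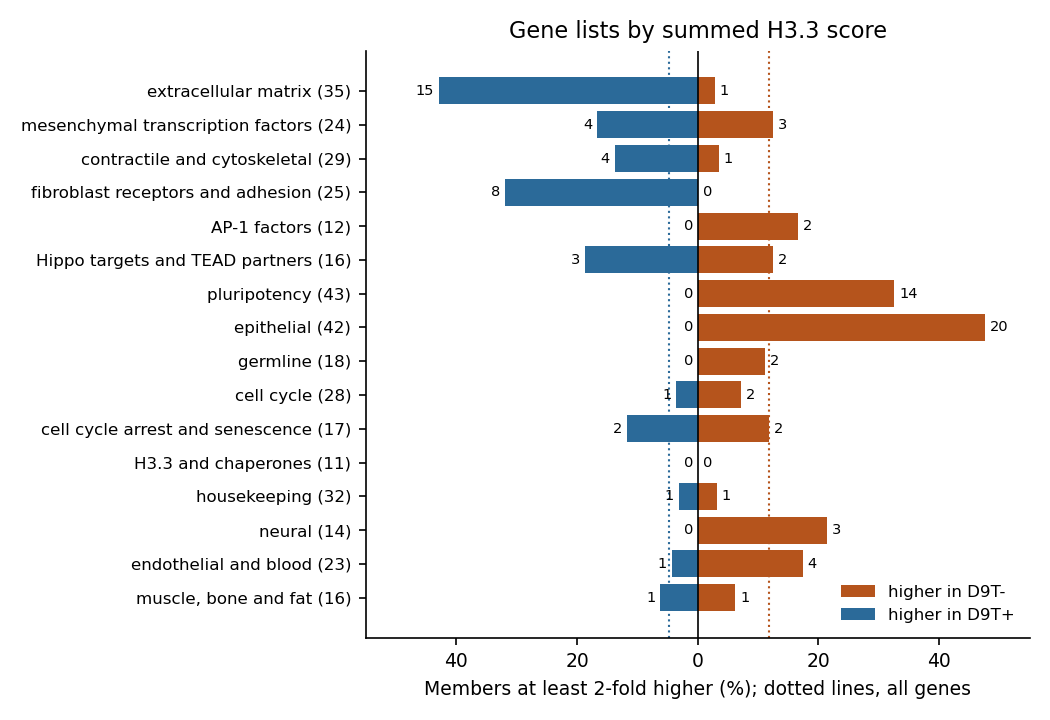
Share of the members of each gene list (percent, horizontal axis, list size in brackets) whose summed H3.3 score was at least 2-fold higher in D9T- (right) or D9T+ (left), with all genes as dotted lines at 11.8% and 4.78%. The matrix list reaches to the D9T+ side (15 of 35 genes), and the epithelial (20 of 42) and pluripotency (14 of 43) lists reach to the D9T- side.

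Epithelial genes were on the D9T- side. Of 42, 20 were at least 2-fold higher in D9T- and 0 in D9T+, against 11.8% and 4.78% of all genes. The median log2 ratio of the 37 touched in either was 1.15. St14 (chr9:30896987-30939438), the gene of the membrane protease matriptase, scored 56.5 in D9T- and 0 in D9T+. It scored 0 in D0, D3 and D6T+, 19.6 in D6T-, 46.6 in D12S+, 103 in D12S-, 61.6 in D16S+, 108 in D16S-, 165 in iPSCs and 146 in ESD3. Ehf (chr2:103103590-103143435), an ETS factor of epithelia, scored 55 in D9T- and 0 in D9T+. Its score was 29.4 in D6T-, 75.3 in D12S- and 21.95 in D16S-, and iPSCs gave 6.68.

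The polarity and trafficking genes Rab25 (64.8 in D9T- and 10.0 in D9T+), Pard6b (92.96 and 15.1) and Crb3 (40.3 and 6.23) had log2 ratios of 2.70, 2.62 and 2.59. Elf3, a further epithelial ETS factor, scored 67.1 and 15.4, and Grhl2, a grainyhead factor, 109 and 32.7. The adhesion genes Cdh1 (E-cadherin, 98.2 and 38.5) and Epcam (76.8 and 27.6) were also called, as was the desmosomal gene Pkp2 (255 and 105). Pkp2 fell just under 2-fold with tags inside peaks (log2 0.99), and the desmoplakin gene Dsp (234 and 117) fell further, to a log2 ratio of 0.71. Genes of junctions that fibroblasts also use, such as Tjp1 (216 and 214) and Pard3 (448 and 531), did not differ by 2-fold.

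**Figure D4:**
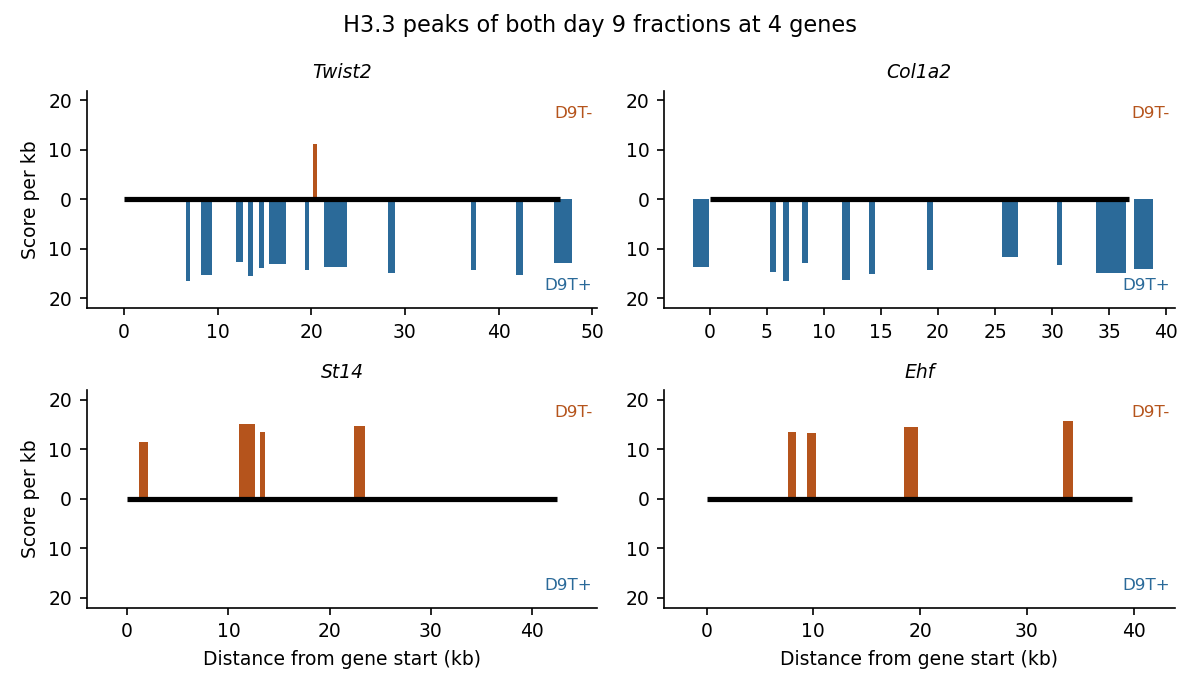
H3.3 peaks over 4 genes, as score per kb of peak (vertical axis, D9T- up and D9T+ down) against the distance from the gene start (kb), with the gene body as a black bar. Twist2 and Col1a2 carry 12 and 11 D9T+ peaks against 1 and 0 D9T- peaks within the counted span, and St14 and Ehf carry 4 D9T- peaks each and 0 D9T+ peaks.

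Pluripotency genes were also on the D9T- side, but at low scores for several defining members. Of 43, peaks touched 33 in D9T- and 23 in D9T+, and of all 22367 genes 13043 and 12292. The 34 touched in either had a median log2 ratio of 0.89. In the list 14 were at least 2-fold higher in D9T- and 0 in D9T+, against 11.8% and 4.78% of all genes. The early factors Sall4 (102 in D9T- and 32.8 in D9T+) and Sall1 (34.4 and 6.68), the RNA-binding gene L1td1 (119 and 36.3), Fbxo15 (226 and 90.2) and Tet1, a DNA demethylation enzyme (166 and 81.8), were among them. Tet2 (375 and 195) and the PRC2 partner Jarid2 (804 and 478) stayed under 2-fold. The 14 genes include Pou5f1, Sox2 and Klf4, which were also delivered by retrovirus. Nanog scored 8.65 in D9T- and 0 in D9T+, and Esrrb, Zfp42, Dppa2, Dppa4, Dppa3, Prdm14 and Nr0b1 had no peak in either. Zfp42 (Rex1) and Esrrb belong to the naive pluripotency network, and the others in this group are expressed in pluripotent or germ cells.

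The counts for these lists varied with the enrichment of the peaks taken. Among peaks enriched 4-fold or more, 4 pluripotency genes were 2-fold higher in D9T- and 5 in D9T+, and 7 epithelial genes in D9T- and 6 in D9T+, while all genes gave 895 and 4853. With the same number of peaks taken by fold over input (26868 each), they were 8 and 1 pluripotency genes and 17 and 2 epithelial genes, with 2671 and 2321 of all genes. The matrix list gave 22 genes in D9T+ and 0 in D9T- at the limit of 4, and 16 and 5 with equal numbers by fold. The receptor and adhesion list gave 15 in D9T+ and 1 in D9T- at the limit of 4.

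Among the delivered factors, Sox2 scored 28.0 in D9T- and 0 in D9T+, Klf4 100 and 42.1, and Myc 63.6 and 54.0. The Sox2 peak lay 0.22 to 1.46 kb past the start of a gene of 2.46 kb. Whether tags from the delivered copies entered these scores was not tested. D0 had 10.9 at Sox2, 11.1 at Klf4 and 77.7 at Myc. The log2 ratio of Klf4 was 1.25, and 0.96 with tags inside peaks. Pou5f1 scored 145 in D9T- from 1 peak in an exon and 0 in D9T+, but the input there was high. The input density within 10 kb of the gene reached 29.2 times the library's median in D9T- and 27.0 times in D9T+, and 25.5 to 36.8 times in the 11 libraries made from fibroblasts, against 1.47 times in ESD3. The fold of this peak over input was 2.04. Within 10 kb there were 6 D9T- peaks scoring up to 169 and 2 D9T+ peaks scoring up to 315, so the neighbourhood of Pou5f1 was not marked in D9T- alone. The part of the input in the difference was not tested.

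Genes of AP-1 factors were mostly marked in both fractions. Of 12 genes of Fos, Jun and related factors, 2 were at least 2-fold higher in D9T- and 0 in D9T+. Fos scored 63.9 in D9T- and 0 in D9T+, with a promoter peak of 51.0 from -1.504 to 1.61 kb relative to its start. That promoter peak met peaks in all 10 other H3.3 libraries. The second D9T- peak at Fos met a D9T+ peak outside the counted span. Atf3 scored 36.2 and 11.4. Fosl2 (213 and 286), Fosl1 (133 and 124), Junb (91.2 and 83.0) and Jun (60.9 and 38.4) were under 2-fold. Of 16 genes of the Hippo pathway, its targets and TEAD partners, 2 were higher in D9T- and 3 in D9T+. Over all genes the shares were 11.8% and 4.78%, and the Hippo count in D9T- was near the first. Vgll3, a TEAD cofactor, scored 15.4 and 116, the kinase gene Lats1 18.1 and 65.4 and Amotl1 76.3 and 173, while Tead1 scored 715 and 729. The members higher in D9T- were Ctgf, a secreted target of the pathway (20.9 and 6.20), and Tead2 (61.3 and 28.5), which was under 2-fold with tags inside peaks (log2 0.81).

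Lists that mark no fibroblast or pluripotent identity were closer to level. The shares of all genes to compare were 11.8% in D9T- and 4.78% in D9T+, and peaks touched 13043 and 12292 of the 22367 genes. Of 28 cell cycle genes 2 were higher in D9T- and 1 in D9T+, with a median log2 ratio of 0.04 and with Ccnb1, cyclin B1, at 127 and 33.1. Of 17 genes of arrest and senescence it was 2 and 2, with Ccl2 as given and Cdkn2a, the Ink4a/Arf locus, at 111 and 46.1 (log2 1.27, and 0.98 with tags inside peaks). The H3.3 genes H3f3a (250 and 200) and H3f3b (138 and 109) and 9 chaperone genes were touched in both fractions with none at 2-fold, and 1 was 2-fold higher in D9T+ with tags inside peaks. Of 32 housekeeping genes 31 were touched in D9T- and 32 in D9T+, with 1 called on each side, Tfrc (132 and 52.8) and Gusb (0 and 35.4), and with a median log2 ratio of 0.27.

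Markers of other cell types were mostly at low scores. Of all 22367 genes, peaks touched 13043 in D9T- and 12292 in D9T+, and 11.8% and 4.78% were at least 2-fold higher. For 14 neural genes, peaks touched 6 in D9T- and 2 in D9T+, and 3 were higher in D9T-. These were Neurog2 (25.5 and 0), Pax6 (17.0 and 0) and Rbfox3 (13.6 and 0). For 23 endothelial and blood genes it was 12 and 8, with 4 higher in D9T-, among them Tek (202 and 49.5) and Pecam1 (313 and 150), and Cd34 (18.7 and 45.1) in D9T+. Of 16 genes of muscle, bone and fat 6 and 4 were touched, with 1 called on each side, and of 18 germline genes 4 and 3, with 2 higher in D9T-. In a sorted population fewer cells of a kind and less H3.3 per cell cannot be told apart.

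The genes with the highest scores among those touched in 1 fraction only are named after their values were seen. On the D9T+ side these 15 genes were led by Col1a2, Mrc2 (a collagen receptor, 84.3), Atp6v0d1 (67.5) and Glis3 (58.1), and they included the prostaglandin synthase gene Ptgs1 (46.3) and Loxl1. All 15 were touched in D0, and all 15 scored higher there than in D9T+. D0 held 19.08% of its tags inside peaks against 12.13% in D9T+, and the scores were not scaled for this. In iPSCs 10 were touched, and 1, Fam13c, scored higher than in D9T+. Mrc2 scored 390 in D0.

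On the D9T- side the 15 were led by Dpp6 (148), Pou5f1, Mtap7 (a microtubule-binding protein, 80.7) and Exog (76.8), and they included Fos, St14, Ehf, Srgn (55.4) and the X-linked deacetylase gene Hdac8 (61.5). D0 touched 9 of them and iPSCs 13, and 7 scored higher in iPSCs than in D9T-. Mtap7 scored 511 and Ak7 273 in iPSCs, against 48.3 for Ak7 in D9T-. D12S- touched all 15 and scored higher at 12 of them, and D6T- touched 14. D12S- held 21.96% of its tags inside peaks against 14.83% in D9T-, which these scores do not take into account.

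Genes touched in both fractions held further wide differences, also named after their values were seen. Fgf7, a growth factor of stroma, scored 3.52 in D9T- and 133 in D9T+, Osmr, the oncostatin M receptor gene, 7.42 and 118, Il1r1, an interleukin 1 receptor gene, 6.18 and 74.6, and Ereg, the gene of epiregulin, 11.4 and 105. In D0 they scored 384, 286, 602 and 208. On the other side Ryr2, a calcium channel gene, scored 145 in D9T- and 6.68 in D9T+, Tshr 112 and 6.46, and Gpa33, an epithelial surface antigen gene, 86.4 and 6.46. Gpa33 scored 0 in D0 and 276 in iPSCs, while Tshr scored 0 in D0 and 5.47 in iPSCs. High D9T- scores thus included genes that iPSCs marked and genes that they did not.

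The same genes were then followed to the day 6 fractions. Of the 1651 genes touched in D9T- only, 585 (35.4%) were touched in D6T- only, 93 (5.63%) in D6T+ only, 540 in both and 433 in neither. Of the 900 touched in D9T+ only, 168 (18.7%) were touched in D6T- only, 148 (16.4%) in D6T+ only, 387 in both and 197 in neither. Over all genes 10.6% were in D6T- only and 3.02% in D6T+ only. By midpoint, the rule set aside above, 623 (33.4%) and 199 (17.3%) genes, 822 in all, were bound in the same fraction only on both days. Over all genes that rule gave 11.2% in D6T- only and 4.48% in D6T+ only. Dpp6, Jakmip1, Hdac8, St14, Ehf, Tcfap2a and Bcl11a were in T- only on both days. Thy1, Ptgs1, Igf1 and the prostacyclin synthase gene Ptgis were in T+ only on both days, and Igf1 scored 22.6 in D6T+ and 24.9 in D9T+ with 112 in D0.

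The strongest single unshared peaks lay mostly in introns or between genes. In D9T- the 3 highest were chr17:35637404-35638309 (169) near Pou5f1, chr17:35646053-35646897 (145) in the Pou5f1 exon, and chr6:47705217-47705717 (114), and the third by score among intergenic peaks was chr17:35640846-35641346 (104). All of these had an input density of 21.5 to 26.0 times the median. The first without it was chr1:88600324-88606541 (106) in an intron of Dis3l2, followed by chr8:91526861-91532891 (96.7), between genes and 38.2 kb from Sall1. The site near Sall1 met peaks in D6T-, D12S+, D12S-, D16S+, D16S-, iPSCs and ESD3, and none in D0, D3 or D6T+. At promoters the highest were those of Polr1d and Lnx2 (61.6), Ncor1 (51.6) and Fos (51.0). In order, these promoter peaks met peaks in 9, 7 and 10 of the 10 other reprogramming H3.3 libraries.

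In D9T+ the highest unshared peak, chr3:148715386-148716014 (189), had an input density of 25.2 times the median. It was followed by the Fbn1 intron, an intron of Tcf4 on chromosome 18 (72.4), chr4:88551986-88557050 (72.1), 28.4 kb from Ifne, and chr1:121019727-121024605 (66.1), the site near Gli2 whose sequence is shown above. The Ifne site met peaks in D0, D3, D6T- and D6T+ and in none of the later libraries or pluripotent cells. At promoters the highest were those of St5 (43.4), Gcnt2 (40.7) and Clcn4-2 (34.1), all lower than the 3 leading D9T- promoters. They met peaks in 9, 8 and 9 of the 10 other libraries.

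Chromosome X stood apart from the autosomes. It had 815 peaks in D9T- and 446 in D9T+, a ratio of 1.83, whereas the 19 autosomes gave ratios of 1.02 to 1.13. Summed scores gave a ratio of 2.18 for X and 1.15 to 1.29 for autosomes. Unshared peaks made up 71.7% of D9T- peaks on X against 46.2 to 53.2% on autosomes, and 44.4% of D9T+ peaks against 38.5 to 47.4%. With equal peak numbers X had 686 and 446 peaks, a ratio of 1.54 beside 0.96 to 1.06. The share of peaks on X was 1.19% in D9T- and 0.69% in D9T+, 1.26% in D6T- and 0.56% in D6T+, 0.66% in D0 and 0.96% in iPSCs. It was 0.63% in D12S+ and 1.11% in D12S-, but 1.14% in D16S+ and 0.64% in D16S-, so it did not keep to 1 route. Input density on X over that on autosomes, in peaks of 500 bp, was 0.82 in D9T- and 0.76 in D9T+. Its part in the difference was not tested.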

How the data were processed

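ChIP-Seq reads were mapped by the authors to mm9 with STAR, reads at several loci were removed, and peaks were called with HOMER (histone style) in each day 9 library against its own input, without pooling. Versions are not given in the sources used here. The deposited lists give the score as a signal (normalized tag count, tags per 10 M), the fold over input as a ratio (2 or more) and a p-value against input by the authors, which was not used. Input libraries were not analysed here on their own.

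Peaks were compared by at least 1 shared base, placed by midpoint on GENCODE vM1 (NCBIM37), and counted with python 3.11.15, pandas 2.3.3, numpy 2.4.6 and pysam 0.24.0, and overlap functions were checked against bedtools 2.31.1 on simulated data. Of the genes, 142 symbols were repeated. Shares carry Wilson intervals and differences of shares the interval built from them. An input density over 10 times the library's median is called high, and printed sequences stayed under 3 times. Peaks on chromosome 18 were left out of the eligible peaks of both fractions from which sequences were printed. Symbols in the gene lists that the annotation lacks were left out.

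The fractions, lists and tests were chosen with earlier results of these data known. Named genes were the 10 highest-scoring genes bound in 1 fraction only on each side (with all and with equal numbers of peaks, without Gm and Rik symbols), the up to 4 members of each list with the largest difference in score, Thy1, Fut4, Pou5f1, Sox2, Klf4 and Myc, and the 3 highest unshared peaks in all, intergenic and promoter classes. Other genes named, the 2-fold counts of lists, the any-base rule, the top 10000 peaks, the high-input filter and ranking by fold were added after the data were seen. Alternatives also covered equal peak numbers, score per kb, coverage of at least 0.5 of the peak, a fold of at least 4, autosomes alone, gene assignment, a partner within 1000 bp and tags inside peaks. D9T-, D9T+ and the other libraries had 1 sample each. From the results by the rules above, 1 gene among the 15 leading D9T+ genes and 1 further octamer sequence are not reported here.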

Additional observations from a re-analysis of the deposited data

Results flagged for a closer look

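The intergenic share of unshared peaks, T- minus T+, was 3.16 percentage points on day 9 and -1.31 points on day 6, and -0.08 points on day 6 with equal peak numbers. The signs were opposite on the 2 days, and the difference between days was not tested, each fraction being 1 library.

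Input, which no comparison used on its own, was high around Pou5f1. The highest input density of a peak within 10 kb was 29.2 times the library's median in D9T- and 27.0 times in D9T+, against 1.47 times in ESD3, an embryonic stem cell line.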

How the results depend on the processing

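No paired analysis was possible because each fraction was 1 library and no test was made. Over 12 kinds of alternative, 91 values were recomputed, of which 72 stayed within 1.5 times (counts) or the interval (shares), 17 moved and 2 turned. At a fold over input of at least 4, unshared D9T- peaks were 13522, genes bound in D9T+ only 4085, the iPSC difference -0.60 points, the D0 difference -11.9, pluripotency genes bound differed by 0, matrix and mesenchymal genes by -23 (main -8), AP-1 by -3.40 points and the octamer by 0.80, and 2-fold genes were 4 (pluripotency, 5 in D9T+), 7 (epithelial) and 15 (receptors, D9T+). Equal peak numbers gave an iPSC difference of 9.18 points, and coverage of at least 0.5 of the peak gave 6.67 points and -19.0 points for D0. Between the top 10000 peaks of each list, 3739 and 3329 were unshared, with differences of 18.3 points for iPSCs and -32.4 for D0. Equal numbers by fold gave 8 pluripotency genes. Of 135 named genes, 9 crossed 2-fold with tags inside peaks and 12 changed sign. The cause was not tested. These limits keep fewer peaks, and a fold of at least 4 kept 26.3% of D9T- and 55.7% of D9T+ peaks. Depth differed between the libraries (32.4 and 22.5 M tags), most unshared peaks were near the calling limit, and 1 library a fraction gives no replicate error.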
